A study of Homo sapiens with 12 samples.

Results

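The genes described here are 38 HOX genes of the HOXA, HOXB, HOXC and HOXD clusters, compared between CBX7-silenced and control cells within each of 2 human cancer cell lines. They were taken by gene symbol from a fixed list of cluster members, and all 38 were found both among the 29890 genes listed for the bladder carcinoma line 5637 and among the 58735 genes listed for the clear cell renal carcinoma line 786-O. Expression was measured by RNA-seq in 12 libraries. Each line had 3 libraries from cells labelled shCBX7, a label that stands for a short hairpin RNA against CBX7, and 3 from cells labelled sh control. The headers of the deposited values instead read Si or si for the CBX7 arms and, in 5637, SiNC for the control arm. The type of silencing RNA is therefore not settled here. The title of the series links CBX7 to EZH2, FGFR3 and cisplatin response in bladder cancer, and the question here is what happened to the HOX clusters when CBX7 was lowered. All 4 groups were grown in RPMI-1640 with fetal bovine serum, and the labels name no further agent. The sequence used for silencing, the time after silencing, and whether an arm is a clone or a pool of cells, are not stated in the labels. Since no label ties the 3 libraries of a group to separate cultures, p-values reflect the spread among those libraries alone, and that spread may be technical.

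HOX genes encode homeodomain transcription factors that give cells their position along the head-to-tail axis of the embryo. In each cluster the genes stand in the order in which they act along that axis: the low-numbered genes near the 3′ end act anteriorly, and the high-numbered ones near the 5′ end act posteriorly. Genes with the same number in different clusters are paralogues that descend from a common ancestral gene. HOX clusters are classic targets of Polycomb. Polycomb repressive complex 2 (PRC2), whose methyltransferase is EZH2 or EZH1, places trimethylation on lysine 27 of histone H3, and chromobox proteins such as CBX7 let the canonical form of Polycomb repressive complex 1 (PRC1) bind that mark and hold genes silent. Trithorax group methyltransferases such as KMT2A act in the opposite sense and keep HOX genes on. Adult epithelia keep regional HOX patterns, in the urinary tract as elsewhere, and 5637 and 786-O derive from different parts of that tract.

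CBX7, the silenced gene, was lower in the shCBX7 arm of both lines. In 5637 it stood at 2.19, 2.17 and 2.42 FPKM (fragments per kilobase of gene length, normalised to library size) in control and at 1.86, 1.80 and 1.97 FPKM in shCBX7 libraries, a log2 change of -0.18 (limma adjusted p = 0.0188). In 786-O it stood at 1.63, 1.75 and 1.49 FPKM in control and at 1.01, 0.892 and 1.07 FPKM in shCBX7 libraries, a log2 change of -0.40 (limma adjusted p = 0.00364). The arms did not overlap in either line. Much CBX7 message therefore remained, above all in 5637. The reads recovered from the values came to between 17773577 and 29355037 per library in 5637 and between 16384151 and 18868874 in 786-O. Among the listed urothelial and basal markers of control 5637 cells, KRT5 stood at 189 and TP63 at 44.8 FPKM, but UPK2 at 0.288 FPKM. KRT19 stood high in both lines, at 1197 FPKM in control 5637 and 179 FPKM in control 786-O cells. PAX8, a renal lineage factor, stood at 37.8 FPKM in control 786-O cells. Of the other renal markers there, VIM stood at 351 and NNMT at 91.8 FPKM. PAX2 was at 1.14, AQP1 at 0.15, CUBN at 0.0143 and LRP2 at 0.00224 FPKM in the same cells. CA9, a marker of clear cell renal carcinoma, was at 0.674 FPKM in control 786-O cells and at 2.70 FPKM in control 5637 cells. Of 5 leukocyte markers, CD14 passed the filter on low values in each line, and PTPRC and CD3E stood at or near 0.

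In control cells the HOXA and HOXB clusters gave most of the HOX message of both lines, while HOXC and HOXD differed between them. The 38 genes summed to 248 ± 5.4 FPKM (SD, n = 3) in 5637 and to 194 ± 5.1 FPKM (SD, n = 3) in 786-O. In 5637 the HOXA cluster held 38.2% of that sum, HOXB 32.4%, HOXD 28.3% and HOXC 1.03%. In 786-O the HOXB cluster held 46.4%, HOXA 34.8%, HOXD 11.6% and HOXC 7.26%. The tables of the 2 lines were normalized separately, so levels are set side by side across lines without a test. HOXA9, a posterior gene known for its role in leukaemia, was the highest member in 5637 at 39.5 ± 1.3 FPKM (SD, n = 3). It was followed by HOXD10 at 29.5 ± 0.65 and HOXB9 at 23.8 ± 0.99 FPKM (SD, n = 3 each). In 786-O the highest members were HOXB9 at 22.2 ± 1.9, HOXA9 at 20 ± 1.2 and HOXB2 at 19.7 ± 1.4 FPKM (SD, n = 3 each). The library values of these genes overlapped. Across the 38 genes the control levels of the lines had a Spearman rank correlation of 0.66, given as a description because the genes share libraries.

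**Figure D1:**
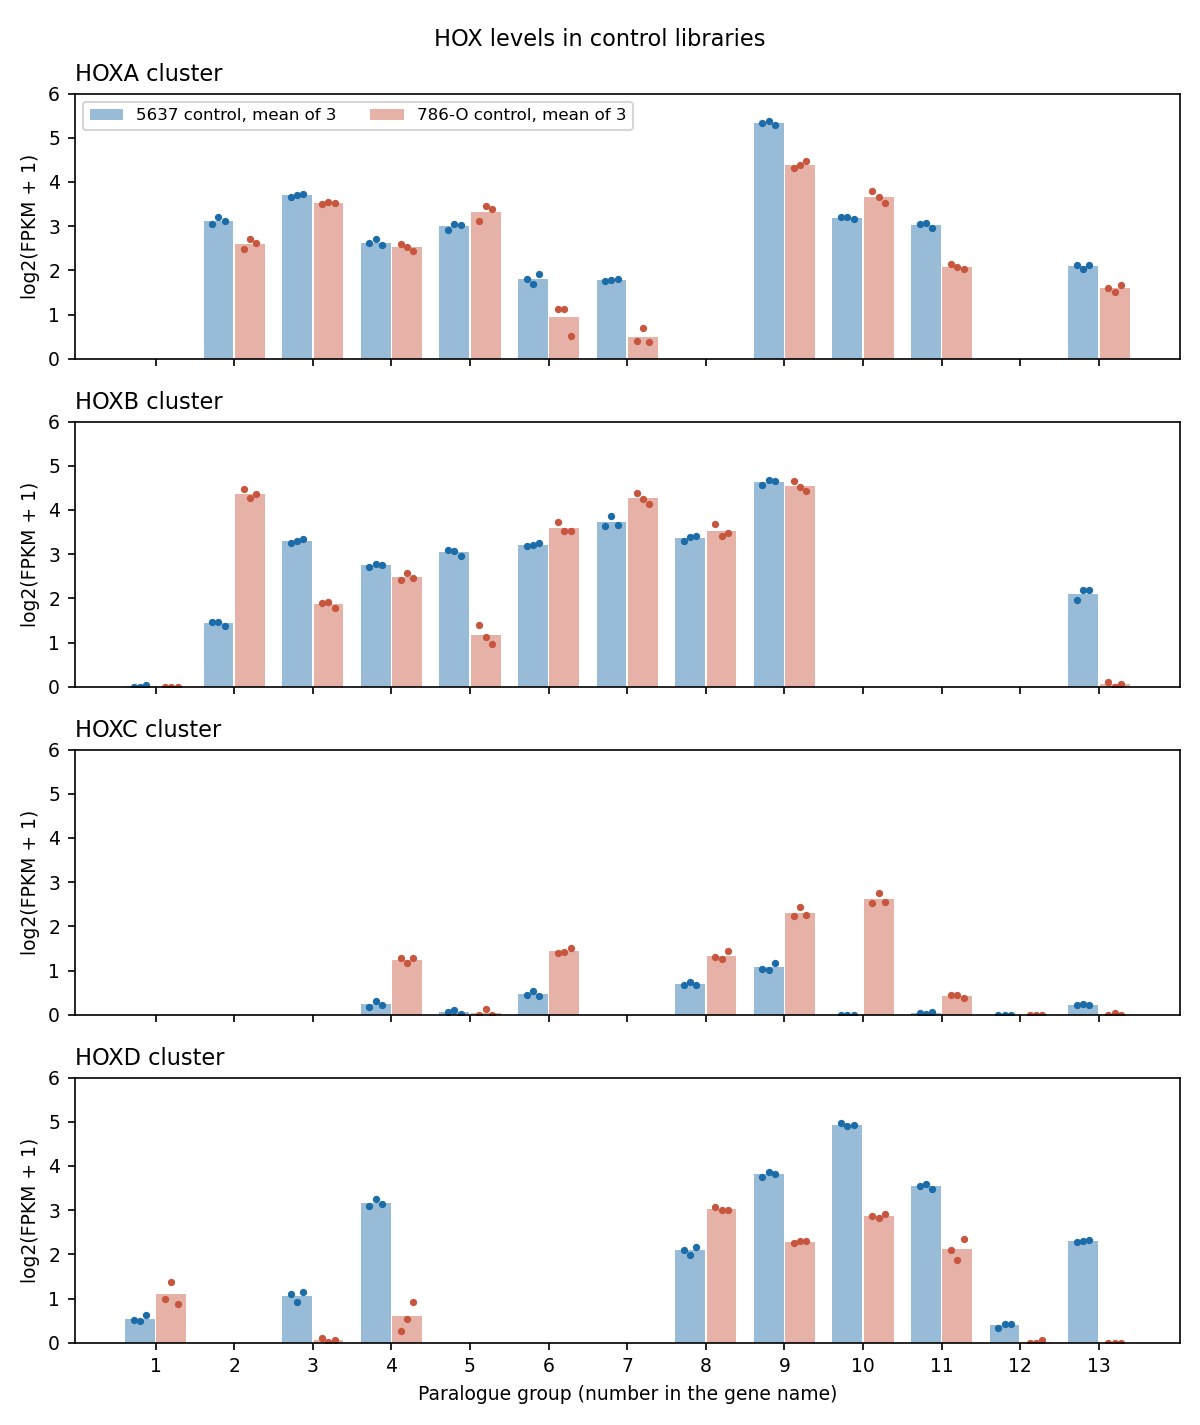
Control levels of the 38 HOX genes by paralogue group (horizontal axis) and cluster (panels), as log2(FPKM + 1), for 5637 (blue) and 786-O (red); bars are means of 3 libraries and points are single libraries. HOXC genes are near the floor in 5637, and HOXB13, HOXD3 and HOXD13 are near it in 786-O.

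Several members were present in 5637 and absent or nearly so in 786-O, and HOXC10 showed the reverse. HOXD13, the last gene of its cluster and a factor for limb and urogenital development, had 3.83, 3.97 and 4.04 FPKM in control and 4.54, 5.17 and 4.72 FPKM in shCBX7 libraries of 5637. It had 0 reads in all 6 libraries of 786-O, where 3 reads, the limit that a count of 0 allows, would be 0.0706 to 0.0812 FPKM (counting error only). HOXB13, which is best known from the prostate and distal gut, averaged 3.32 FPKM in control 5637 cells and 0.0463 FPKM in control 786-O cells. HOXD4 averaged 7.98 FPKM in control 5637 cells and 0.521 FPKM in control 786-O cells. HOXC10, a posterior gene, read 4.73, 5.76 and 4.86 FPKM in the control and 5.50, 4.71 and 4.43 FPKM in the shCBX7 libraries of 786-O. In 5637 it had 0 reads in the 3 control libraries and at most 1 read in a shCBX7 library. HOXB2, an anterior gene that patterns the hindbrain, was at 1.70 ± 0.11 FPKM in control 5637 cells and at 19.7 ± 1.4 FPKM in control 786-O cells (SD, n = 3 each). The silenced libraries showed the same contrasts between lines as the control libraries.

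When CBX7 was lowered, more HOX genes fell than rose in 5637, and more rose than fell in 786-O. All changes are shCBX7 minus control on the log2(FPKM + 1) scale, which understates the change of low genes, and a gene was called at a limma adjusted p under 0.05 over all tested genes. In 5637, 28 of the 38 members had the mean of 0.5 FPKM needed for testing, and 18 of them (64.3%) were called, where 44.5% of all tested genes were called. The called members were 15 that fell (53.6%) and 3 that rose (10.7%), against 20.2% of all tested genes that fell and 24.4% that rose. In 786-O, 27 members were tested and 12 (44.4%) were called, a share below the 51% of all tested genes. There 9 members rose (33.3%) and 3 fell (11.1%), where 24.7% of all tested genes rose and 26.2% fell. The median log2 change of the tested members was -0.11 in 5637 and 0.21 in 786-O, while the median of all tested genes was 0.01 in 5637 and -0.01 in 786-O. Altogether 24 members were called in at least 1 line, and 6 were tested in neither. In bulk RNA, fewer cells that express a gene and less message per cell cannot be told apart. Members of 1 cluster share a chromosome region and overlap in annotation, so they are not independent of each other.

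**Figure D2:**
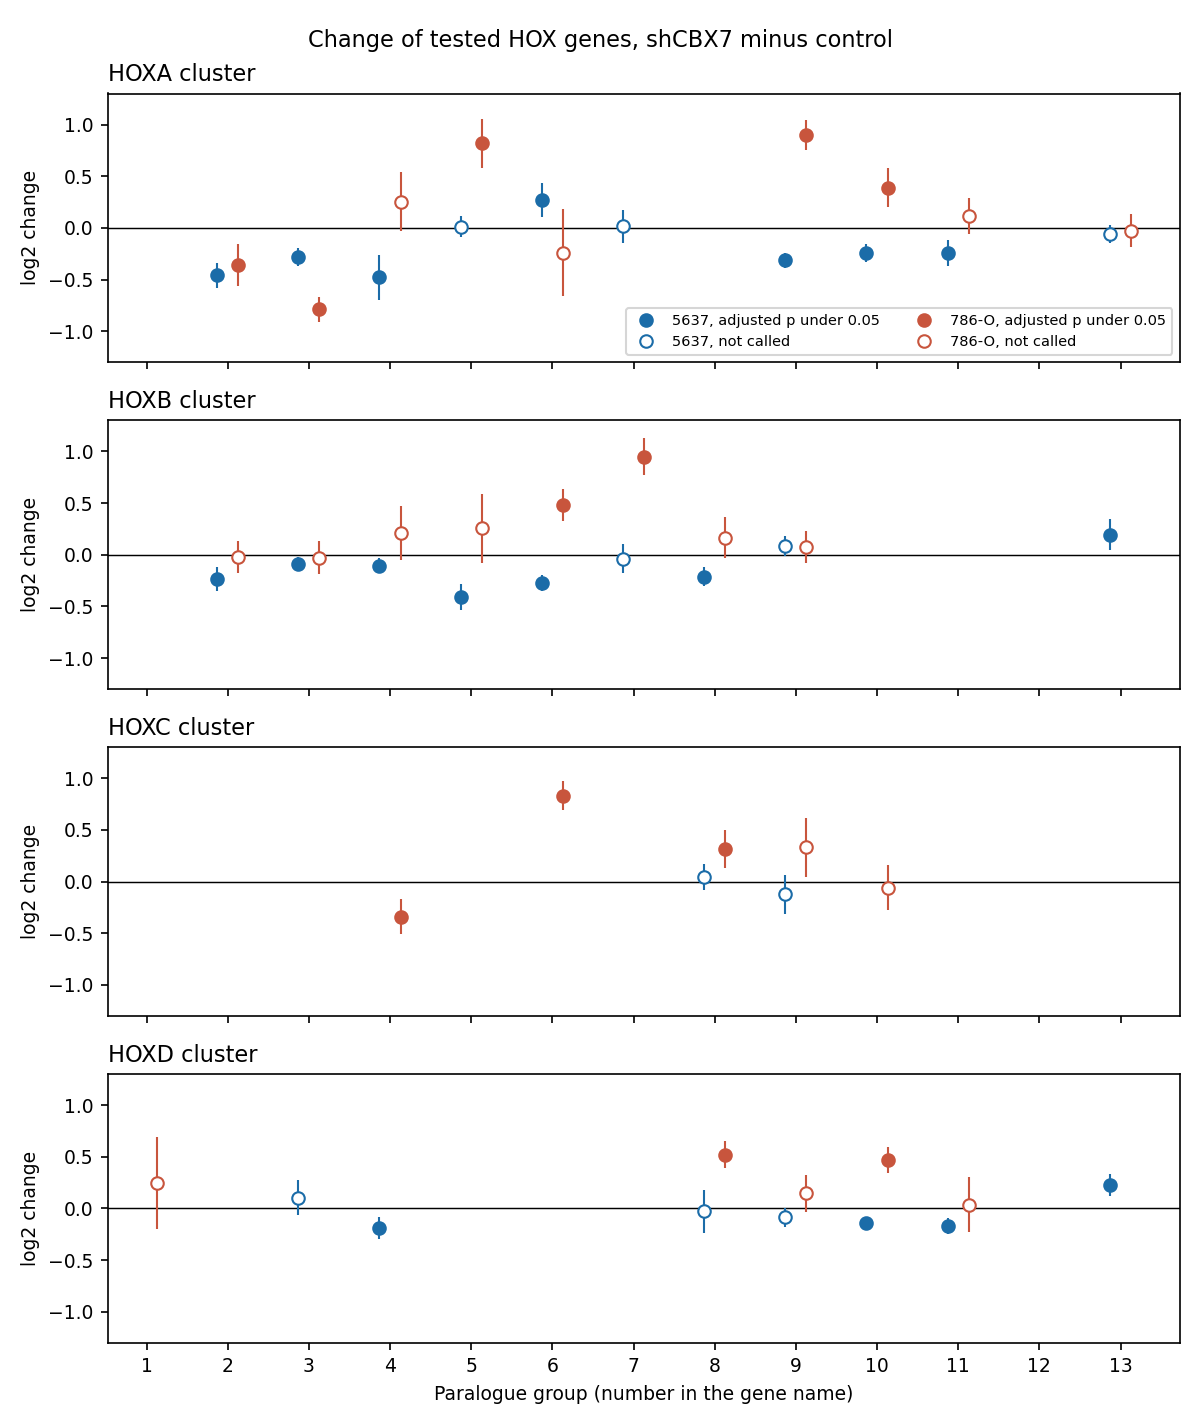
Change of each tested HOX gene (shCBX7 minus control, log2(FPKM + 1), with 95% confidence interval) by paralogue group and cluster, in 5637 (blue) and 786-O (red); filled points were called. Most filled blue points lie below 0, and the filled red points of paralogue groups 5 to 10 lie above 0.

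Of the 23 members tested in both lines, 6 were called in both. HOXA9, HOXA10, HOXB6 and HOXD10 fell in 5637 and rose in 786-O, and HOXA2 and HOXA3 fell in both lines. Among all genes tested in both lines, 4.7% fell in 5637 and rose in 786-O, 12.2% were called in opposite directions, and 14.7% were called in the same direction. HOXA9 had the largest opposed change. In 5637 it read 39.5, 40.9 and 38.2 FPKM in the control and 30.7, 32.5 and 31.6 FPKM in the shCBX7 libraries. In 786-O it read 18.8, 19.8 and 21.3 FPKM in the control and 39.4, 39.1 and 35.9 FPKM in the shCBX7 libraries. Every silenced library was thus below every control library in 5637 and above every one in 786-O. The log2 change of HOXA9 was -0.31 (SE 0.0311, limma adjusted p = 3.88e-04) in 5637 and 0.90 (SE 0.0612, limma adjusted p = 2.49e-05) in 786-O, where its level came to 1.91 times that of control. Mean HOXA9 levels in 5637 and 786-O were 39.5 and 20 FPKM in control cells and 31.6 and 38.1 FPKM in silenced cells.

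HOXA10, the neighbour of HOXA9 and a regulator of the female reproductive tract and of blood progenitors, had the same pair of directions. Its levels in 5637 were 8.17, 8.28 and 8 FPKM in control and 6.39, 6.81 and 7.07 FPKM after silencing (log2 change -0.24, limma adjusted p = 0.00207). In 786-O they were 12.8, 11.6 and 10.4 FPKM in control and 16.7, 15.2 and 14.6 FPKM after silencing (log2 change 0.39, limma adjusted p = 0.00561). HOXB6, a central gene of the HOXB cluster, showed no overlap of arms in either line. It went from 8.02, 8.23 and 8.53 FPKM to 6.87, 6.66 and 6.49 FPKM in 5637 (log2 change -0.27, limma adjusted p = 7.22e-04). In 786-O it went from 12.2, 10.4 and 10.4 FPKM to 16.0, 15.8 and 15.4 FPKM (log2 change 0.48, limma adjusted p = 7.56e-04). HOXD10, which helps pattern the hindlimb and its motor neurons, had the smallest log2 change of the 4 in 5637. It read 30.2, 28.9 and 29.3 FPKM in the control and 26.7, 26.0 and 27 FPKM in the shCBX7 libraries of 5637 (log2 change -0.15, limma adjusted p = 0.00337). Its levels in 786-O were 6.25, 6.08 and 6.5 FPKM in control and 9.26, 8.65 and 9.27 FPKM in silenced cells (log2 change 0.47, limma adjusted p = 2.69e-04), again without overlap.

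HOXA3, an anterior gene needed for the thymus and parathyroid, and HOXA2, which specifies the second pharyngeal arch, stood apart because they fell in both lines. HOXA3 read 11.7, 12.1 and 12.3 FPKM in the control and 10.2, 9.32 and 9.73 FPKM in the shCBX7 libraries of 5637. In 786-O its values were 10.3, 10.7 and 10.5 FPKM in control and 5.40, 5.95 and 5.62 FPKM after silencing. The silenced libraries lay below the control libraries in each line, and in 786-O 53.9% of the control mean remained. The log2 change of HOXA3 was -0.28 (SE 0.036, limma adjusted p = 0.00106) in 5637 and -0.79 (SE 0.0521, limma adjusted p = 2.23e-05) in 786-O. HOXA2 read 7.24, 8.18 and 7.65 FPKM in the control and 5.45, 5.55 and 4.98 FPKM in the shCBX7 libraries of 5637 (log2 change -0.46, limma adjusted p = 5.83e-04). In 786-O it read 4.58, 5.50 and 5.15 FPKM in the control and 3.30, 3.73 and 4.20 FPKM in the shCBX7 libraries (log2 change -0.36, limma adjusted p = 0.0118). HOXA2 overlaps no other annotated HOX gene or antisense gene, whereas the annotated span of HOXA3 covers HOXA4, HOXA5 and HOXA6.

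The promoters of 5 of these 6 genes are shown because they are the members that were called in both lines; the RefSeq promoter table (GRCh38.p14) was matched by symbol for 19 members, and the window runs from 250 bases before to 50 bases after the start of transcription that lies farthest upstream. Capitals mark every match, on either strand, to TATAAA (the core of a TATA box), CCAAT (the CCAAT box), GGGCGG (the GC box) or TGATTNAT (a composite of a PBX and a HOX site), so a match on the other strand reads as the reverse complement, such as ATTGG for CCAAT. The HOXA windows are on the minus strand and the HOXD10 window on the plus strand, each printed 5′ to 3′. HOXA9 is at chr7:27165488-27165787, HOXA10 at chr7:27179812-27180111, HOXD10 at chr2:176116528-176116827, HOXA2 at chr7:27102634-27102933 and HOXA3 at chr7:27152534-27152833.
HOXA9: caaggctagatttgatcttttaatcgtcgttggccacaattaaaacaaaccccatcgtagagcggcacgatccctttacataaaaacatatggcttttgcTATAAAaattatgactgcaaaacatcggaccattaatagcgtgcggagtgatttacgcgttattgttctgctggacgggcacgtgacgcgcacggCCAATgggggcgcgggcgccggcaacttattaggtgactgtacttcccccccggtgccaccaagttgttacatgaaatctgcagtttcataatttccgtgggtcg
HOXA10: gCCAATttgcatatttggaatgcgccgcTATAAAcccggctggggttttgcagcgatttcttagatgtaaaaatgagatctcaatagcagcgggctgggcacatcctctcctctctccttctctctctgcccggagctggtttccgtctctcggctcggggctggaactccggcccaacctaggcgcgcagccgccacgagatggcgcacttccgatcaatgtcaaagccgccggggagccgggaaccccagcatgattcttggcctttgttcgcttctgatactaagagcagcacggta
HOXD10: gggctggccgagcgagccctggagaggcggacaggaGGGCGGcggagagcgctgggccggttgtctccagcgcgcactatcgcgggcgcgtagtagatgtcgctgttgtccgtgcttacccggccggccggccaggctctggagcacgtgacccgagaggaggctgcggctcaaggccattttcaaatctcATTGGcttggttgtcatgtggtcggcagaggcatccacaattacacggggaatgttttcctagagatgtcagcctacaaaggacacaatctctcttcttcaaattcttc
HOXA2: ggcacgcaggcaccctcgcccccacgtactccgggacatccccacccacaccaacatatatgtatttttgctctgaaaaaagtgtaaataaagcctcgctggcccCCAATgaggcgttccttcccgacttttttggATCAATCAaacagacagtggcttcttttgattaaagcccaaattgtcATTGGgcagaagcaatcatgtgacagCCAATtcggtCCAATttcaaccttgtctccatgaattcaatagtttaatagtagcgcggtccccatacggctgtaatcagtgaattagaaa
HOXA3: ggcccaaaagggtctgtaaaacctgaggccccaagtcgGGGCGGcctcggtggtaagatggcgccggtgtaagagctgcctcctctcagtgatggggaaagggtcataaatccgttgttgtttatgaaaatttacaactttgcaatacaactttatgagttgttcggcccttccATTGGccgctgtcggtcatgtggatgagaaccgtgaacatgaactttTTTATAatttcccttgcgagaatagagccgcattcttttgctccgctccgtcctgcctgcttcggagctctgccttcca

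Among the 5 windows, HOXA9 holds TATAAA at position -150 and CCAAT at -55, counted from the start of transcription to the first letter. HOXA10 holds both at the far end of its window, at -222 and -249. In HOXA3, TATAAA lies on the other strand at -29. HOXA2 alone of the 5 holds TGATTNAT, on the other strand at -114, together with 4 CCAAT matches. HOXD10 has no TATAAA match but GGGCGG and CCAAT. The 19 windows are of HOXA and HOXD genes apart from HOXB1 and HOXC4, so they say little on the HOXB and HOXC clusters. Over the 19 windows, CCAAT was found in 16 members and in 34.6% of all 35116 promoter windows of the same length. TATAAA was found in 4 members (11.5% of all windows), GGGCGG in 10 (45% of all windows) and TGATTNAT in 2, HOXA2 and HOXD11 (2.82% of all windows). The median number of CG dinucleotides per window was 23 in the members and 14 in all windows, with a median GC content of 58.0% and 58.7%. These are matches of letters within 1 window per gene, and a gene without a match may hold the motif elsewhere. The gene spans annotated with the 786-O values begin farther upstream than the windows for HOXA9, HOXA10 and HOXD10, at 27175180, 27180261 and 176108790.

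In 5637 the other called members were 9 that fell and 3 that rose, nearly all by small amounts. HOXA4 and HOXB5 were the largest falls besides HOXA2. HOXA4 read 5.12, 5.51 and 4.92 FPKM in the control and 2.84, 3.61 and 3.94 FPKM in the shCBX7 libraries (log2 change -0.48, limma adjusted p = 0.00528). HOXB5 read 7.54, 7.38 and 6.79 FPKM in the control and 4.98, 5.04 and 5.65 FPKM in the shCBX7 libraries (log2 change -0.41, limma adjusted p = 0.0011). In both genes all silenced libraries lay below all control libraries. HOXA11, a posterior gene of kidney and uterine development, fell from 7.22, 7.38 and 6.72 FPKM to 5.39, 6.22 and 5.99 FPKM (log2 change -0.24, limma adjusted p = 0.00953). HOXB2 fell from 1.75, 1.78 and 1.57 FPKM to 1.25, 1.36 and 1.26 FPKM (log2 change -0.24, limma adjusted p = 0.00687), again without overlap.

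A further 3 genes of the HOXB cluster fell in 5637. HOXB8 went from 8.88, 9.47 and 9.71 FPKM to 8.23, 7.89 and 7.70 FPKM (log2 change -0.21, limma adjusted p = 0.00434). HOXB4, a factor known for expanding blood stem cells, went from 5.56, 5.91 and 5.79 FPKM to 5.33, 5.18 and 5.32 FPKM (log2 change -0.11, limma adjusted p = 0.0255). HOXB3 went from 8.53, 8.84 and 9.17 FPKM to 8.22, 8.35 and 8.18 FPKM (log2 change -0.09, limma adjusted p = 0.0456). In each of them the silenced libraries lay below the control libraries, but by little in HOXB3 and HOXB4. The HOXB3 call was lost when any of 5 of the 6 libraries was left out (limma adjusted p 0.0763 to 0.133), all but the control library numbered 1 in the table, and also without the filter (0.0734) or the mean-variance trend (0.0567). The HOXB4 call was lost without shCBX7 library 2 or 3 or control library 2 or 3 (limma adjusted p 0.0566 to 0.0792).

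In the HOXD cluster, HOXD4 and HOXD11 fell beside HOXD10 in 5637. HOXD4 went from 7.57, 8.61 and 7.76 FPKM to 6.94, 6.82 and 6.84 FPKM (log2 change -0.19, limma adjusted p = 0.012). HOXD11, a paralogue of HOXA11, went from 10.8, 11.0 and 10.1 FPKM to 9.22, 9.34 and 9.49 FPKM (log2 change -0.17, limma adjusted p = 0.00579). The arms of both genes did not overlap. The 3 members that rose in 5637 were HOXD13, HOXA6 and HOXB13. HOXD13, whose values are given above, had a log2 change of 0.23 (limma adjusted p = 0.00615). HOXA6 read 2.51, 2.21 and 2.76 FPKM in the control and 3.07, 3.53 and 3.04 FPKM in the shCBX7 libraries (log2 change 0.27, limma adjusted p = 0.0182). HOXB13 read 2.89, 3.53 and 3.53 FPKM in the control and 4.11, 3.77 and 3.91 FPKM in the shCBX7 libraries (log2 change 0.19, limma adjusted p = 0.044). The silenced libraries of all 3 lay above the control libraries. The HOXA6 call was lost without shCBX7 library 2 (limma adjusted p = 0.0539) and without the filter (0.0542). The HOXB13 call was lost without any of the shCBX7 libraries or without control library 1 (limma adjusted p 0.0586 to 0.118), in the last case with a log2 change of 0.12, and also without the filter, with quantile normalization, with median centring and without the mean-variance trend (0.0526 to 0.107).

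The other 10 tested members of 5637 did not pass. HOXB9 was at 23.8 ± 0.99 FPKM in control and 25.3 ± 1.0 FPKM after silencing (SD, n = 3 each), with a 95% confidence interval of the log2 change from -0.01 to 0.18. HOXA5 was at 6.99 and 7.06 FPKM, HOXA7 at 2.44 and 2.48 FPKM, HOXB7 at 12.2 and 11.8 FPKM and HOXD8 at 3.25 and 3.19 FPKM. HOXD9 was at 13.1 and 12.3 FPKM (log2 change -0.09, limma adjusted p = 0.116). The remaining 4 were HOXA13, HOXC8, HOXC9 and HOXD3, with log2 changes between -0.12 and 0.11. In all 10 the arms overlapped.

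In 786-O the largest rises were at HOXB7, HOXA9, HOXC6 and HOXA5, which came to 1.84 to 2.23 times the control level. HOXB7, a gene often high in carcinomas, read 20, 17.9 and 16.7 FPKM in the control and 38.6, 35.1 and 34.1 FPKM in the shCBX7 libraries. Its log2 change was 0.95 (SE 0.0768, limma adjusted p = 5.49e-05). HOXA5, a regulator of lung development, read 7.65, 10.0 and 9.48 FPKM in the control and 17.7, 17.1 and 15.2 FPKM in the shCBX7 libraries (log2 change 0.82, limma adjusted p = 4.17e-04). Each silenced library of both genes was above every control library. HOXC6 stood at 1.64, 1.70 and 1.87 FPKM in control and at 3.81, 3.96 and 3.80 FPKM after silencing (log2 change 0.83, limma adjusted p = 3.32e-05). It rests on 97 to 256 reads per library. HOXD8 went from 7.45, 7.08 and 7.05 FPKM to 11.4, 10.3 and 10.6 FPKM (log2 change 0.52, limma adjusted p = 2.03e-04). HOXC8 went from 1.46, 1.42 and 1.70 FPKM to 2.04, 2.03 and 2.35 FPKM (log2 change 0.31, limma adjusted p = 0.0113). Arms did not overlap in any of these. Each of the 12 calls in 786-O held when any single library was left out.

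The third member that fell in 786-O was HOXC4, at the 3′ end of its cluster. It read 1.43, 1.26 and 1.45 FPKM in the control and 0.871, 0.858 and 0.906 FPKM in the shCBX7 libraries, with every silenced library below the control libraries. Its log2 change was -0.34 (SE 0.0716, limma adjusted p = 0.0057), on 39 to 65 reads per library. HOXC4 and HOXC6 share annotated sequence on the same strand and went in opposite directions, as did HOXA3 and the HOXA5 gene within its span. Among the 15 members that did not pass in 786-O, HOXC9 was nearest to the threshold: 3.71, 4.39 and 3.75 FPKM in control and 6.15, 5.50 and 4.18 FPKM after silencing (log2 change 0.33, limma adjusted p = 0.0531). Without shCBX7 library 3, its limma adjusted p was 0.0064, and it also passed with quantile normalization, median centring and voom (0.0373 to 0.0465). HOXB9, HOXB2, HOXB3, HOXA13, HOXC10 and HOXD11 had log2 changes between -0.06 and 0.07 there. HOXB9, at a level above 20 FPKM, was thus not called in either line, with a 95% confidence interval of -0.08 to 0.23 in 786-O. HOXA4, HOXA11, HOXB4, HOXB5, HOXB8, HOXD1 and HOXD9 had log2 changes of 0.12 to 0.25, and HOXA6 of -0.24. Few reads stood behind HOXA6 (9 to 28 per library) and HOXD1 (27 to 75).

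**Figure D3:**
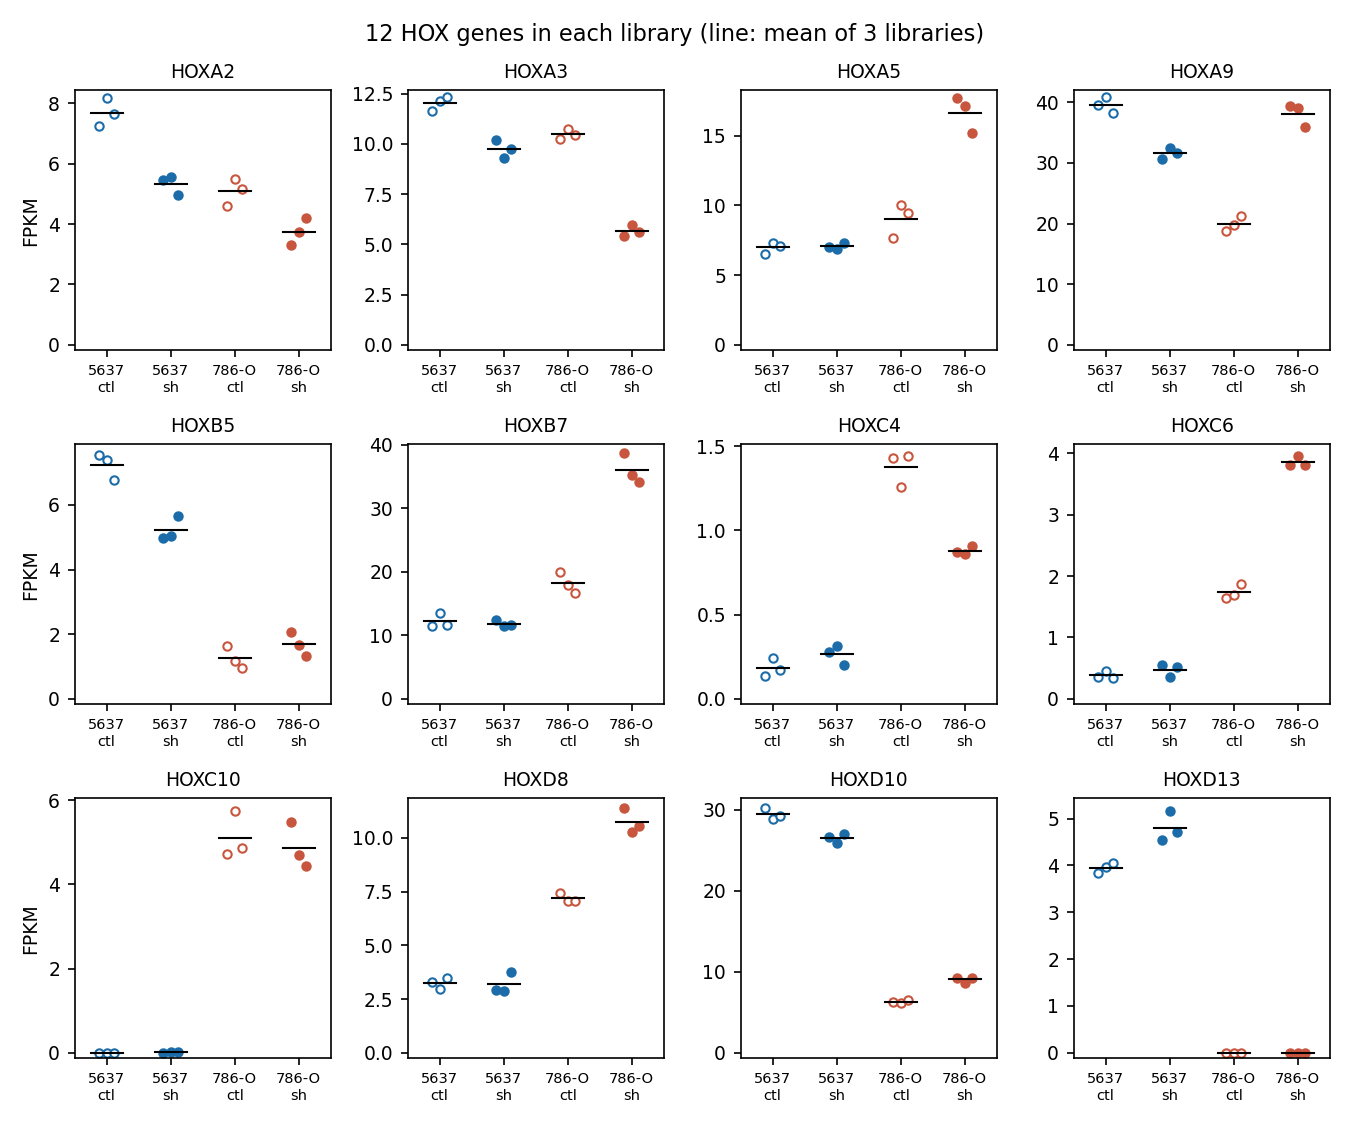
FPKM of 12 HOX genes in each library of 5637 (blue) and 786-O (red), control (open) and shCBX7 (filled), with the mean of each arm as a line; each panel has its own vertical axis. HOXA9 and HOXD10 move down in 5637 and up in 786-O, HOXA2 and HOXA3 move down in both, and HOXC10 and HOXD13 are at or near 0 in 1 of the lines.

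The difference between lines was tested directly as the change in 786-O minus the change in 5637, for the 32 members with a mean of 0.5 FPKM over all 12 libraries. It was called in 19 of them (53.3% of all tested genes were called): positive in 16, where 24.3% of all tested genes were positive, and negative in 3, where 29% were negative. One of the negative calls, HOXD13, had no reads in 786-O, so 18 calls are for genes with reads in both lines. Of these 18, HOXC4 and HOXC6 were under the filter in 5637 and passed here through 786-O. Their differences therefore rest mainly on the changes in 786-O. HOXA9 differed by 1.21 (SE 0.0702, limma adjusted p = 9.1e-08), HOXB7 by 0.99 (SE 0.104, limma adjusted p = 1.11e-05) and HOXA5 by 0.80 (SE 0.117, limma adjusted p = 1.35e-04). HOXB6 differed by 0.75, HOXC6 by 0.74, HOXA4 by 0.73, HOXB5 by 0.66, HOXA10 by 0.63, HOXD10 by 0.61 and HOXD8 by 0.55. These 10 genes were therefore relatively higher after silencing in 786-O than in 5637, whether through a fall in 5637, a rise in 786-O or both. HOXC9, HOXB8, HOXA11, HOXC8, HOXD9 and HOXB2 made up the other positive calls, at 0.21 to 0.46.

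Of the members tested in both lines, 9 were called in 5637 and not in 786-O. HOXA6, HOXB3, HOXB4 and HOXD11 among them were not called for the difference between lines. HOXA4, HOXA11, HOXB2, HOXB5 and HOXB8 were, and their levels in 786-O were as follows. HOXA4 read 5.01, 4.81 and 4.40 FPKM in the control and 7.36, 5.01 and 5.36 FPKM in the shCBX7 libraries, with a silenced minimum just above the control maximum. HOXB5 read 1.64, 1.18 and 0.950 FPKM in the control and 2.07, 1.68 and 1.32 FPKM in the shCBX7 libraries, with overlap. HOXB8 read 11.9, 9.65 and 10.2 FPKM in the control and 12.8, 11.0 and 12.1 FPKM in the shCBX7 libraries, also with overlap. HOXA11 was at 3.23 ± 0.15 and 3.60 ± 0.38 FPKM (SD, n = 3 each) and HOXB2 at 19.7 ± 1.4 and 19.3 ± 1.1 FPKM (SD, n = 3 each).

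The negative differences were HOXA3 at -0.51 (limma adjusted p = 2.42e-05) and HOXC4 at -0.44 (limma adjusted p = 4.64e-04). The third call, HOXD13 at -0.23, only restates its rise in 5637, since it had no reads in 786-O and passed the filter through 5637, and with a pseudocount of 0.1 it was not called (limma adjusted p = 0.0855). HOXC4 and HOXC6 were under the filter in 5637, at 0.181 and 0.384 FPKM in control cells. HOXA2, which fell in both lines, did not differ between them (0.10, limma adjusted p = 0.455), and neither did HOXB9 (-0.01, limma adjusted p = 0.898); both p-values show only that a difference was not detected. Of the 19 calls, 3 depended on single libraries. HOXB2 was lost in 8 of 12 leave-one-out fits (limma adjusted p 0.0656 to 0.0933), HOXC9 in 7 (0.0559 to 0.0662) and HOXD9 in 9 (0.0521 to 0.0931), and all 3 without the filter on low values (0.0631 to 0.0715). Over the 23 members tested in both lines the changes had a Spearman correlation of 0.06 and a Pearson correlation of 0.09, given as a description over genes that share libraries.

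**Figure D4:**
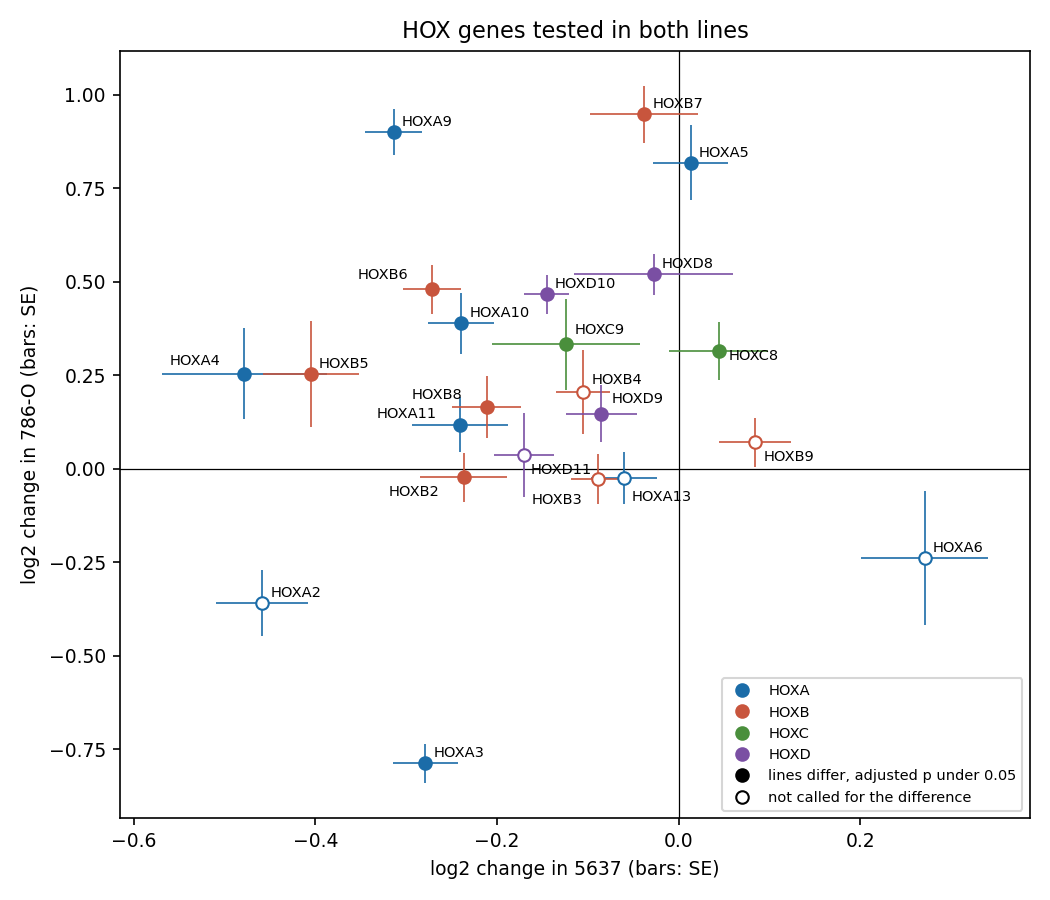
Log2 change in 5637 (horizontal) against that in 786-O (vertical) for the 23 HOX genes tested in both lines, coloured by cluster, with standard errors; filled points differ between lines at a limma adjusted p under 0.05. HOXA9 and HOXB6 lie in the upper left, HOXA2 and HOXA3 in the lower left.

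By cluster, the summed levels of HOXA, HOXB and HOXD were lower after silencing in 5637 and higher in 786-O. In 5637 the HOXA sum was 93.7, 97.4 and 93.6 FPKM in the control and 77.0, 79.6 and 79.2 FPKM in the shCBX7 libraries, 0.828 times control. HOXB went from 80.5 ± 2.9 to 75.7 ± 0.30 FPKM and HOXD from 70.3 ± 0.48 to 65.1 ± 0.60 FPKM (SD, n = 3 each). HOXC stayed at 2.55 ± 0.13 and 2.61 ± 0.16 FPKM (SD, n = 3 each). The HOXA, HOXB and HOXD sums of 5637 did not overlap between arms, and the HOXC sums did. In 786-O the HOXA sum was 66.1, 69.3 and 67.2 FPKM in the control and 96.8, 92.5 and 87.3 FPKM in the shCBX7 libraries, 1.36 times control. HOXB reached 1.29, HOXD 1.33 and HOXC 1.23 times control. All 4 sums of 786-O were higher in every silenced library. HOXA9 alone contributed much of the HOXA rise, going from 20 to 38.1 FPKM within sums of 67.5 and 92.2 FPKM, and HOXB7 much of the HOXB rise, from 18.2 to 36.0 FPKM within sums of 90.2 and 116 FPKM. No test was run on sums.

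**Figure D5:**
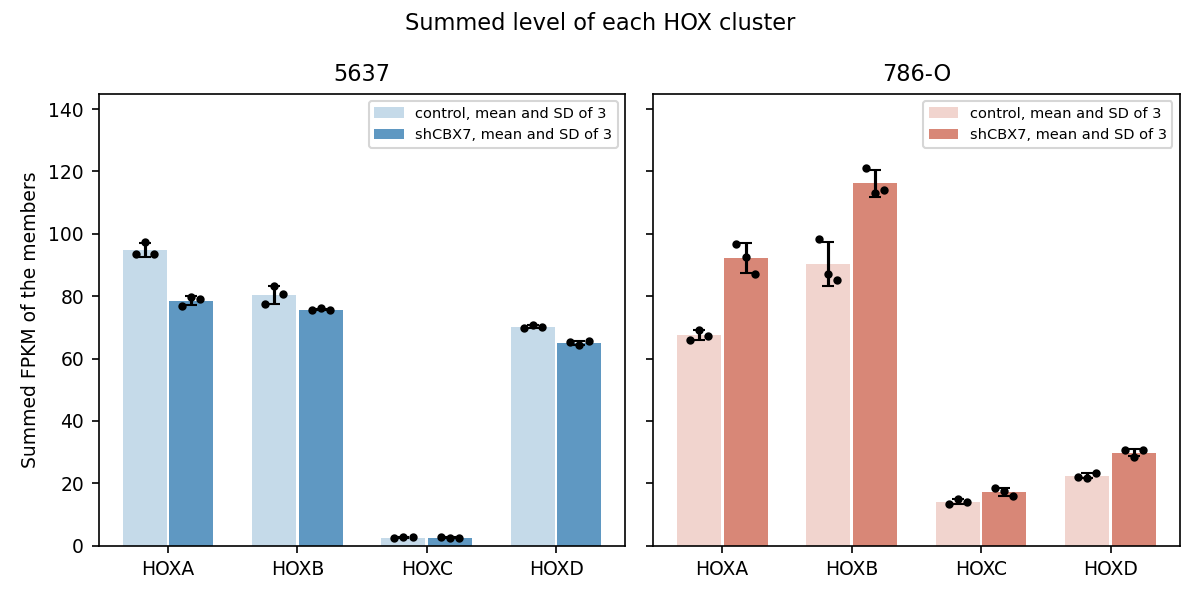
Summed FPKM of the members of each HOX cluster in 5637 (left) and 786-O (right), control (pale) and shCBX7 (dark); bars are means of 3 libraries, whiskers SD and points single libraries. The HOXA, HOXB and HOXD sums are lower after silencing in 5637, and all 4 sums are higher in 786-O.

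Counted by cluster in 5637, 6 of 10 tested HOXA genes fell and 1 rose, 6 of 9 HOXB genes fell and 1 rose, 3 of 7 HOXD genes fell and 1 rose, and neither of the 2 tested HOXC genes was called. In 786-O, 3 of 9 tested HOXA genes rose and 2 fell, 2 of 8 HOXB genes rose, 2 of 5 HOXC genes rose and 1 fell, and 2 of 5 HOXD genes rose. No fall was called in HOXB or HOXD of 786-O. Among all tested genes, 24.4% rose and 20.2% fell in 5637, and 24.7% rose and 26.2% fell in 786-O. Differences between clusters were not tested, since genes of a cluster are not replicates.

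By position within the cluster, the called rises of 786-O lay in the central and posterior genes. Among all tested genes of 786-O, 24.7% rose and 26.2% fell. None of 5 tested genes of the anterior paralogue groups 1 to 3 rose there and 2 fell, and their summed level was 0.846 times control. Of 12 tested genes of the central groups 4 to 8, 6 rose and 1 fell, and their sum went from 73.1 ± 3.0 to 112 ± 5.3 FPKM (SD, n = 3 each), 1.54 times control. Of 10 tested genes of the posterior groups 9 to 13, 3 rose and none fell, and the sum was 1.34 times control. In 5637 falls were spread over all 3 regions: 4 of 5 anterior, 6 of 12 central and 5 of 11 posterior genes. Of all tested genes of 5637, 20.2% fell. The summed level there was 0.823, 0.894 and 0.911 times control in the anterior, central and posterior groups. The anterior sums thus went the same way in both lines, while the central and posterior sums went opposite ways. In 786-O the lower anterior sum, 33.1 against 39.1 FPKM, rests on HOXA3 (10.5 to 5.65 FPKM) and HOXA2 (5.08 to 3.75 FPKM). These neighbours in 1 cluster fell in both lines. The other anterior genes tested in 786-O, HOXB2, HOXB3 and HOXD1, were not called, with log2 changes of -0.02, -0.03 and 0.25. Differences between regions were not tested, since each region holds few genes and genes are not replicates.

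Genes of the same paralogue group were called together in some groups and not in others. In 5637 every tested member fell in group 2 (HOXA2, HOXB2), group 4 (HOXA4, HOXB4, HOXD4), group 10 (HOXA10, HOXD10) and group 11 (HOXA11, HOXD11). In 786-O the group 9 genes had log2 changes of 0.90 (HOXA9), 0.07 (HOXB9), 0.33 (HOXC9) and 0.15 (HOXD9), and only the first was called. In group 10, HOXA10 and HOXD10 rose while HOXC10 stood at -0.06 (limma adjusted p = 0.629). In group 6, HOXB6 and HOXC6 rose and HOXA6 stood at -0.24 (limma adjusted p = 0.30). In group 4, HOXC4 fell while HOXA4 and HOXB4 stood at 0.25 and 0.21. In group 13 of 5637, HOXD13 and HOXB13 rose and HOXA13 stood at -0.06 (limma adjusted p = 0.216). Differences between paralogues were not tested.

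The 6 members tested in neither line were HOXB1, HOXC5, HOXC11, HOXC12, HOXC13 and HOXD12. HOXC12 had 0 reads in all 12 libraries, where 3 reads would be at most 0.0455 FPKM in 5637 and 0.0545 FPKM in 786-O. HOXB1 had 0 reads in 786-O and at most 2 in a library of 5637, and HOXC5 at most 5. HOXC11 and HOXD12 did not exceed 0.368 and 0.563 FPKM in any library. HOXA7, HOXB13, HOXD3, HOXD4 and HOXD13 were under the filter in 786-O alone, and HOXC4, HOXC6, HOXC10 and HOXD1 in 5637 alone. HOXB1 and HOXC12 thus had no read in any shCBX7 library of either line.

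The clusters are dense, and 22 of the 38 members share annotated sequence with another member on the same strand, while 24 are overlapped by a gene on the opposite strand and 6 by neither. The strand setting of the counting is not given in the sources used here, so reads of such pairs cannot be told apart with certainty. Of the other transcripts of the clusters, 12 were tested in each line. In 5637, 4 fell and none rose, where 20.2% of all tested genes fell and 24.4% rose. In 786-O, 26.2% of all tested genes fell and 24.7% rose. The next values are of 5637. HOTAIRM1, a long noncoding RNA at the anterior end of HOXA, went from 35.1, 34 and 34.7 FPKM to 23.2, 24.0 and 22.8 FPKM (log2 change -0.55, limma adjusted p = 2.36e-05), beside the falls of HOXA2 and HOXA3. HOXB-AS3 went from 7.35 to 5.40 FPKM, HOXA10-AS from 3.64 to 2.90 FPKM and HOXA-AS3 from 1.19 to 0.909 FPKM. In 786-O, HAGLR, which runs antisense to HOXD1 and HOXD3, rose from 4.02, 4.01 and 3.64 FPKM to 5.17, 5.16 and 5.31 FPKM (log2 change 0.35, limma adjusted p = 0.00157), and no other was called. HOTAIRM1 stood at 18 ± 1.0 and 17.3 ± 1.7 FPKM there (SD, n = 3 each; limma adjusted p = 0.571), although HOXA3 fell.

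Genes flanking the clusters rose and fell in similar numbers in each line. Of the 5 nearest tested genes on each side of each cluster that are no HOX gene, 40 per line, 9 rose and 10 fell in 5637, with a median log2 change of 0.01. In 786-O 8 rose and 9 fell, with a median of -0.02. Among all tested genes, 24.4% rose and 20.2% fell in 5637, and 24.7% rose and 26.2% fell in 786-O. The flanking genes lay up to 1795 kb from a cluster in 5637 and up to 1099 kb in 786-O, and the sets differ in part between lines. HIBADH, a mitochondrial enzyme gene on the posterior side of HOXA, fell in 786-O (log2 change -1.77, limma adjusted p = 7.02e-07) and in 5637 (-0.14, limma adjusted p = 0.00419). SKAP2, 105.1 kb from the anterior end of HOXA, fell in 5637 (-0.30, limma adjusted p = 2.23e-04) and stood at -0.05 in 786-O (limma adjusted p = 0.467). LNPK, beside HOXD, was not called in either line. These 3 genes were picked as examples after their values were seen.

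HOX proteins bind DNA together with PBX and MEIS cofactors. Among the cofactor genes tested in 5637, PBX3 fell from 13.2 to 12.1 FPKM (log2 change -0.12, limma adjusted p = 0.0161). Of 6 tested in 786-O, PBX2 fell from 13.1, 12.4 and 13 FPKM to 5.93, 6.81 and 6.87 FPKM (log2 change -0.88, limma adjusted p = 3.18e-05). PBX4 rose from 3.89 to 7.20, PBX3 from 8.04 to 10.6 and MEIS3 from 1.96 to 2.55 FPKM. PBX2 thus went against PBX3 and PBX4 in 786-O, where 51% of all tested genes were called. PBX2 was under the filter in 5637, where 44.5% of all tested genes were called.

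Polycomb genes were called in both directions in both lines. Of the PRC1 list, 7 of 19 tested genes rose and 8 fell in 5637, and 6 of 20 rose and 5 fell in 786-O. Of all genes tested, 24.4% rose and 20.2% fell in 5637, and 24.7% rose and 26.2% fell in 786-O. The chromobox paralogue CBX2 rose in both lines, from 4.27 to 6.09 FPKM in 786-O (log2 change 0.43, limma adjusted p = 0.00219) and from 26 to 29.1 FPKM in 5637 (log2 change 0.16, limma adjusted p = 0.00507). CBX6 rose in 5637 from 13.2 to 15.4 FPKM and fell in 786-O from 13.2 to 9.15 FPKM. PHC2 and KDM2B rose, and PHC1, SCMH1 and CBX7 fell, in both lines. L3MBTL2 rose in 5637 and fell in 786-O, from 4.83 to 1.96 FPKM. In 5637, RYBP fell from 17.2 to 13.8 FPKM, PHC3 from 9.11 to 7.84 FPKM, and PCGF6 rose from 5.11 to 6.26 FPKM.

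Of the PRC2 list, 1 of 10 tested genes rose and 4 fell in 5637, and 5 of 12 rose and 4 fell in 786-O. The shares over all tested genes were 24.4% and 20.2% in 5637, and 24.7% and 26.2% in 786-O. In the PRC2 list 4 were called in both lines, each time in opposite directions. Among all genes tested in both lines, 12.2% were called in opposite directions and 14.7% in the same direction. EZH2 fell in 5637 from 39.5 to 30.3 FPKM (log2 change -0.37, limma adjusted p = 1.09e-04) and stood at 10.3 and 9.25 FPKM in 786-O (limma adjusted p = 0.124). EZH1, its paralogue, fell in 5637 from 15.9 to 12.6 FPKM and rose in 786-O from 2.18 to 3.33 FPKM. RBBP4 and MTF2 also fell in 5637 and rose in 786-O, and SUZ12 did the reverse. JARID2, which helps recruit PRC2, rose in 786-O from 3.40 to 5.58 FPKM, while PHF19 fell from 6.54 to 4.20 FPKM.

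Among trithorax and H3K27 demethylase genes, 7 of 18 tested rose and 1 fell in 5637, and 2 of 17 rose and 4 fell in 786-O. Of all genes tested, 24.4% rose and 20.2% fell in 5637, and 24.7% rose and 26.2% fell in 786-O. KDM6A, a demethylase of the Polycomb mark, rose from 11.2 to 13.5 FPKM in 5637 (log2 change 0.25, limma adjusted p = 3.38e-04), where KMT2D and MLLT1 rose too and KMT2B fell. WDR5, a shared subunit of KMT2 complexes, fell in 786-O from 28.9, 26.7 and 26.1 FPKM to 13.4, 14 and 14.4 FPKM (log2 change -0.92, limma adjusted p = 1.37e-05) and rose in 5637 from 36.3 to 38.4 FPKM (log2 change 0.08, limma adjusted p = 0.0438). ASH2L, MEN1 and PSIP1 fell beside WDR5 in 786-O, where the central and posterior HOX sums were higher; PSIP1 rose in 5637. The part of these genes in the HOX values was not tested.

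Of the upstream regulators, which include retinoic acid enzymes and receptors and CDX factors, 1 of 10 tested rose and 2 fell in 5637. In 786-O 2 of 6 rose. Of all genes tested, 24.4% rose and 20.2% fell in 5637, and 24.7% rose and 26.2% fell in 786-O. ALDH1A3, an enzyme that makes retinoic acid, fell in 5637 from 333 to 284 FPKM (log2 change -0.23, limma adjusted p = 9.06e-04), and the receptor RARB fell from 7.85 to 6.78 FPKM (log2 change -0.19, limma adjusted p = 0.00798). GDF11, a signal that acts on posterior HOX genes in the embryo, rose from 4.02 to 4.59 FPKM. In 786-O the receptors RARG and RARA rose, from 10.0 to 15.3 FPKM and from 7.26 to 10.2 FPKM (log2 changes 0.57 and 0.45, limma adjusted p = 1.86e-04 and 0.00324). Retinoic acid acts on anterior HOX genes, and these values are set beside the HOX results without a test of their part in them.

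Markers of the lines themselves moved beside the HOX genes. Of all genes tested, 24.4% rose and 20.2% fell in 5637, and 24.7% rose and 26.2% fell in 786-O. Of 9 tested urothelial and basal markers in 5637, 6 rose and 2 fell, with KRT5 going from 187, 190 and 191 FPKM to 263, 264 and 267 FPKM (log2 change 0.48, limma adjusted p = 1.6e-05), and the summed level of the 10 listed markers was 2063 to 2082 FPKM in control and 2246 to 2273 FPKM in silenced libraries. KRT7 and KRT18 rose in both lines. KRT7 went from 246 to 293 FPKM in 5637 and from 1.15 to 2.55 FPKM in 786-O (log2 change there 0.72, limma adjusted p = 3.71e-04). KRT18 went from 71.7 to 75.3 FPKM in 5637 and from 55.3 to 74.4 FPKM in 786-O (log2 change there 0.42, limma adjusted p = 8.76e-04). In 786-O these were the 2 called of 5 tested urothelial and basal markers, and the list summed to 219 to 264 FPKM in control and 272 to 304 FPKM in silenced libraries. Of 6 tested renal markers in 786-O, none rose and 2 fell, PAX8 from 37.8 to 30.3 FPKM and CDH16 from 1.01 to 0.306 FPKM, with summed levels of 482 to 486 FPKM in control and 446 to 486 FPKM in silenced libraries. Fibroblast markers summed to 14.6 to 15.2 FPKM in control and 12.5 to 13.3 FPKM in silenced libraries of 5637, nearly all of it COL1A1, and to 2.12 to 2.58 and 2.93 to 3.44 FPKM in 786-O, mostly LUM. COL1A2, COL3A1 and DCN stayed under 0.03 FPKM in every library of both lines. The part of these shifts in the HOX values was not tested.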

How the data were processed

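The members and gene lists were chosen with earlier results of these data known. The deposited values are FPKM, computed by the authors for each gene, with 1 table per line, per the file headers; the libraries were made with a directional kit, per the labels' protocols. Aligner, counter and strand setting: not given in the sources used here. The submitters' processing notes name mm10, a mouse build, for these human samples. Coordinates in the 786-O table are those of GENCODE release 29 (GRCh38).

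Groups came from the titles and the cell line labels. The control columns of 5637 could be tied to their group but not to single samples, and columns without a group numbered 0. Values were turned into log2(FPKM + 1). A gene entered a fit when its mean over that fit's libraries reached 0.5 FPKM, and was tested with limma 3.58.1 (R 4.3.3, eBayes with a mean-variance trend), with Benjamini-Hochberg adjustment over all tested genes and a threshold of 0.05. Lines were compared by an interaction term fitted over all 12 libraries. Because low values step in units of 1 read, reads could be recovered (tolerance 0.01): 28092 of 29890 genes came out whole in every library of 5637, and all 58735 in 786-O. The recovered reads gave the depth and a voom alternative. No 2 libraries held identical values. Values correlated at 0.995 to 0.996 within and 0.989 to 0.991 between arms in 5637, and at 0.991 to 0.993 and 0.964 to 0.965 in 786-O. Statistics were checked on simulated data.

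Per-library values are given for members of at least 1 FPKM in an arm that were called or had 0 reads in a line. Of the other lists, up to 4 genes per line with the smallest p, and those called in both lines, could be named. Alternatives were a pseudocount of 0.1, no filter, quantile normalization, median centring, no trend, each library left out, the replicate block in 786-O, and voom. Motifs were searched in RefSeq promoter windows (GRCh38.p14). A few listed genes that this rule would name are not reported here. Protein sequences and peak data were not used here.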

Additional observations from a re-analysis of the deposited data

Results flagged for a closer look

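In the interaction test between lines 19 HOX genes were called, 18 of them with reads in both lines, with the difference given as the log2 change in 786-O minus that in 5637. In the HOXA cluster the difference was 1.21 for HOXA9, 0.80 for HOXA5, 0.73 for HOXA4, 0.63 for HOXA10, 0.36 for HOXA11 and -0.51 for HOXA3. In HOXB it was 0.99 for HOXB7, 0.75 for HOXB6, 0.66 for HOXB5, 0.38 for HOXB8 and 0.21 for HOXB2. In HOXC it was 0.74 for HOXC6, 0.46 for HOXC9, 0.27 for HOXC8 and -0.44 for HOXC4. In HOXD it was 0.61 for HOXD10, 0.55 for HOXD8, 0.23 for HOXD9 and -0.23 for HOXD13. The HOXD13 value is no measured difference between lines, because its 786-O libraries hold no read and it passed the filter through 5637; with a pseudocount of 0.1 it was not called (limma adjusted p = 0.0855). HOXC4 and HOXC6 were under the filter in 5637 and passed here through 786-O, so their values rest mainly on the changes in 786-O. With limma, 53.3% of all tested genes were called in this comparison.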

How the results depend on the processing

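No HOX result changed direction past the threshold under any alternative. The count of members that rose in 5637 went from 3 to 1 without the filter on low values, where HOXA6 and HOXB13 no longer passed. HOXB13 was also lost with quantile normalization (limma adjusted p = 0.0685), median centring (0.0575) and no mean-variance trend (0.0526), and HOXB3 without the filter (0.0734) and without the trend (0.0567). HOXB4 gained a line difference with quantile normalization (0.0197) and median centring (0.0339). HOXD3 passed with a pseudocount of 0.1 (limma adjusted p = 0.0409), with a difference of 0.76 against 0.07 in the main fit. It passed the filter through 5637 and had 1 to 16 reads per library in 786-O. The HOXD3 call thus rests on values near the floor and is no measured difference between lines. With single libraries left out, 14 to 18 members were called in 5637 (1 to 3 higher, 13 to 16 lower), 12 to 13 in 786-O (9 to 10 higher, 3 to 4 lower) and 16 to 19 for the difference between lines (13 to 15 positive, 3 to 4 negative). The lowest count of rises in 5637, 1, came without shCBX7 library 2. The median change of the members in 5637 was -0.06 without the filter, against -0.11. With a pseudocount of 0.1, the line difference of HOXD13 no longer passed (limma adjusted p = 0.0855). The replicate block in 786-O gave 15 called members (12 higher, 3 lower), adding HOXB5, HOXB8 and HOXC9. Libraries of the same number correlated at 0.083, 0.077 and 0.057 in their deviations, and each correlated best with its own number, a hint from the data and not from the design. No block was fitted in 5637, where the numbers of the control columns are those of the table and could not be tied to samples. Few reads limit HOXA6, HOXC4 and HOXD1.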

Other observations

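HOXD3 was under the filter in 786-O and was not tested there. It read 0.0844, 0.0154 and 0.0512 FPKM in the control and 0.238, 0.203 and 0.127 FPKM in the shCBX7 libraries, on 1 to 16 reads per library, and the arms did not overlap. MIR196A1, a microRNA gene within the annotated span of HOXB7, read 1.71, 2.34 and 0.866 FPKM in the control and 8.29, 2.57 and 2.40 FPKM in the shCBX7 libraries of 786-O (log2 change 0.91, limma adjusted p = 0.0902). It was not called there, and the higher mean came mainly from shCBX7 library 1. In 5637 MIR196A1 averaged 30.8 FPKM in control and 33.8 FPKM in silenced cells (limma adjusted p = 0.527). Reads within the span of HOXB7 cannot be assigned to MIR196A1 with certainty. HOXD3 and MIR196A1 were picked after their values were seen.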
